A study of Homo sapiens with 6 samples.

Results

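The menin, MLL and DOT1L complex genes comprised 10 protein-coding genes taken by name, with earlier results of these data known: the H3K4 methyltransferases KMT2A (MLL1) and KMT2B, the adaptors MEN1 (menin) and PSIP1 (LEDGF), the H3K79 methyltransferase DOT1L and its cofactor MLLT10 (AF10), the acetyl-lysine readers MLLT1 (ENL) and MLLT3 (AF9), and the scaffolds AFF1 and AFF4 of the super elongation complex. They stood among 20136 protein-coding genes annotated on GRCh37 (hg19) and 19666 on GRCh38 (hg38). For each gene, the peaks within the gene body and 20 kb on either side were taken from 4 peak lists. In these lists, H3K27Ac (acetylated lysine 27 of histone H3, found at active promoters and enhancers) or H3K4me3 (trimethylated lysine 4, found at active promoters) was mapped with either of the guide RNAs, sgNeg or sgNpm1A.

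Menin joins the N-terminal part of MLL1 to LEDGF, which holds the complex on chromatin, and MLL1 methylates lysine 4 of histone H3 at promoters rich in unmethylated CpG. DOT1L methylates lysine 79 of the same histone over transcribed genes and is bound by AF10 and by the YEATS-domain proteins ENL and AF9, which also recruit the super elongation complex built on AFF1 or AFF4. In AML with mutant NPM1 the HOXA cluster and MEIS1 depend on menin, MLL1 and DOT1L, and KMT2A, MLLT1, MLLT3, MLLT10 and AFF1 are themselves joined in leukemic gene fusions.

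OCI-AML3, a human AML cell line that carries a mutation of NPM1 (mtNPM1) together with mutations of DNMT3A and NRAS, was transfected with the control guide RNA sgNeg or with sgNpm1A, which is directed at mtNPM1. Per the labels the cells of both groups were then cultured for 3 days, while the text of the study gives a longer time for this assay. Fixed and sheared chromatin was pulled down with antibodies to each mark, and Tn5 transposase then added the sequencing adapters. There was 1 library per guide and mark, so that each comparison below describes a pair of libraries, without a test. A peak list does not show how many cells were edited, and the inputs (2 samples) were not used here.

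The H3K27Ac lists held 327715 peaks in sgNeg and 317059 in sgNpm1A, with median widths of 358 and 415 bp, and are on GRCh37. The H3K4me3 lists held 353628 and 106641 peaks, with median widths of 192 and 407 bp, and are on GRCh38. The read depth is unknown. The file names of the marks differ by a tag of unstated meaning (OCI2 for H3K27Ac, OCI3 for H3K4me3), although the labels name OCI-AML3 for both. The study also used OCI-AML2, a line with wild-type NPM1 that lacks the mutant target of sgNpm1A, and whether the H3K27Ac tag stands for that line was not settled. The study also knocked a copy of mtNPM1 into OCI-AML2. If the tag stood for OCI-AML2 without that copy, the H3K27Ac values would not be those of cells with mtNPM1. Marks were therefore set side by side by gene, and positions were compared within a mark alone. Since peaks were called in each library separately, the height of a peak is given as its fold enrichment and as the percentile of that fold within its own list (ties at their mean rank).

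The 250 bases before the first annotated start are shown for 5 of the genes whose peaks differed most in kind: KMT2A, KMT2B with the highest H3K4me3 peak of the 10 genes, DOT1L with the highest H3K27Ac peak, and the related readers MLLT1 and MLLT3, which differed in H3K27Ac. They are written 5′ to 3′ in the direction of the gene, and the capitals mark CpG, the letters that the CXXC domain of MLL proteins binds when unmethylated. The 4 GRCh38 sequences are from RefSeq (GRCh38.p14) and that of DOT1L is from the GRCh37 genome.
KMT2A, chr11:118436242-118436491, GRCh38, plus strand: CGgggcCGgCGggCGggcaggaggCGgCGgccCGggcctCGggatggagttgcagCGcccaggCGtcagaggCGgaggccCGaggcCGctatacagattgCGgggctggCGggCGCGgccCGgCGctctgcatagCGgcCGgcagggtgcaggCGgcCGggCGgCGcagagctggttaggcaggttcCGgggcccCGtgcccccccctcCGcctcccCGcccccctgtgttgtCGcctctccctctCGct
KMT2B, chr19:35717753-35718002, GRCh38, plus strand: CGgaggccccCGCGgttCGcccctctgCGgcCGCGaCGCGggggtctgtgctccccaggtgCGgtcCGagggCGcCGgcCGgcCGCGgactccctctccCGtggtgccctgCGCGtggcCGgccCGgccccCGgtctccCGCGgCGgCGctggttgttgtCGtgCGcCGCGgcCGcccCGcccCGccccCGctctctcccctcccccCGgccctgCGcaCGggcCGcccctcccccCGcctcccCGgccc
DOT1L, chr19:2163682-2163931, GRCh37, plus strand: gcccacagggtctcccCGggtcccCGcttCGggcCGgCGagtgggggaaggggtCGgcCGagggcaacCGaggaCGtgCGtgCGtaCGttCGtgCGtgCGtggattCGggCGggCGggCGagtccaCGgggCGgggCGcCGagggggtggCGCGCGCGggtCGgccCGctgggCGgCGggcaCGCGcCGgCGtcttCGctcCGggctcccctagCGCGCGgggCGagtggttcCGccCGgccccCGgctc
MLLT1, chr19:6279976-6280225, GRCh38, minus strand: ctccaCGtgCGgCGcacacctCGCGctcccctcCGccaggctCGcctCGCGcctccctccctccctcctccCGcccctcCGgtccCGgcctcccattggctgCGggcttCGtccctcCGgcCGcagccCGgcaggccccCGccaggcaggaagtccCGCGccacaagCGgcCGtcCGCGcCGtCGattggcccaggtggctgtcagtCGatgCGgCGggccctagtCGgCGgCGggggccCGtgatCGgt
MLLT3, chr9:20622500-20622749, GRCh38, minus strand: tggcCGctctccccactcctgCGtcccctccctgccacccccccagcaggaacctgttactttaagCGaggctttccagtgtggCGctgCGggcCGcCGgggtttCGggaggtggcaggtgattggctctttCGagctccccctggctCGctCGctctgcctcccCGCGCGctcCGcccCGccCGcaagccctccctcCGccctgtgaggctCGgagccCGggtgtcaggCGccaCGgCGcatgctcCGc

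These stretches held 31 CpG in KMT2A, 40 in KMT2B, 44 in DOT1L, 34 in MLLT1 and 24 in MLLT3, at 78.4%, 84.4%, 80.4%, 77.2% and 72.0% G or C. MLLT3 thus had the fewest CpG of the 5. Of the 10 genes, 9 had 13 windows of 300 bases (250 before and 50 after a start) in the RefSeq table, which holds 35116 windows. The letters CG were found in 13 of the 13 and in 96.0% of all windows. Their number in the windows of the 9 genes was 15 to 48, with a median of 33.0 against 14.0 over all windows. On either strand, the GC box (GGGCGG, which contains a CG) was in 11 of the 13 and in 45.0% of all windows. The CCAAT box (CCAAT) was in 7 and in 34.6%, the core letters of ETS sites (GGAAG) in 7 and in 71.9%, the E-box (CACGTG, which also contains a CG) in 2 and in 7.26%, and the NRF1 letters (CATGCGC, likewise) in 1 and in 4.43%. The 6 windows without GGAAG were both of AFF1, those of KMT2B, MLLT3 and AFF4, and 1 of the PSIP1 windows. A match is a description of letters and not of a bound factor.

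In sgNeg, each of the 10 genes had a H3K27Ac peak within 1 kb of an annotated transcript start (95% Wilson interval 72.2 to 100%), beside 79.2% of all protein-coding genes. In sgNpm1A, 5 of 10 genes had one (23.7 to 76.3%), beside 57.1% of all genes. Intervals here and below cover counting error alone. The 5 genes without a promoter peak in sgNpm1A were MEN1, PSIP1, MLLT10, MLLT3 and AFF4. The median percentile of the highest promoter peak, set to 0 where there was none, was 98.8 in sgNeg and 7.02 in sgNpm1A, and the median change was -60.2, beside -35.4 over all genes with a sgNeg peak. It was lower in sgNpm1A for 9 of the 10 genes, and for 82.9% of all genes with a sgNeg peak, so that the direction was that of most genes. The exception was MLLT1, by a peak at the edge of the window described below.

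**Figure D1:**
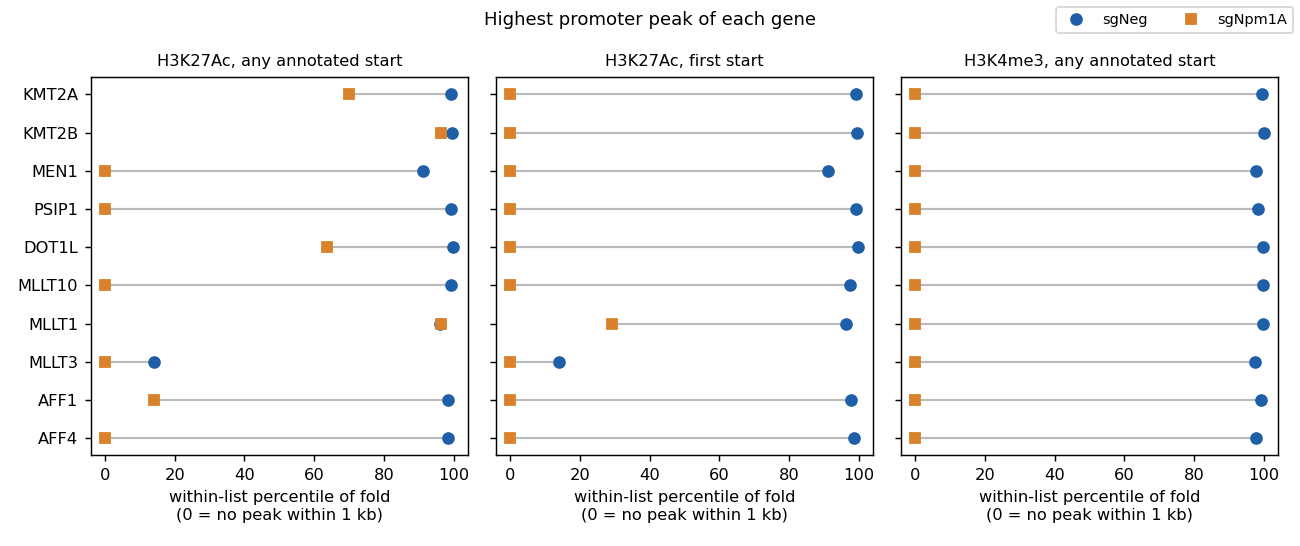
Within-list percentile of the fold enrichment of the highest peak within 1 kb of a start, for each of the 10 genes (circles, sgNeg; squares, sgNpm1A; 0 where no peak was listed). With any annotated start, 5 genes have a sgNpm1A H3K27Ac peak; at the first start only MLLT1 has one (percentile 29.3), and no gene has a sgNpm1A H3K4me3 peak.

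The count depended on which start was used. At the first start, the outermost of each gene record, 10 of 10 genes had a H3K27Ac peak in sgNeg, beside 69.9% of all genes, and 1 of 10 in sgNpm1A, beside 32.4%. The 1 gene was MLLT1. In KMT2A, KMT2B, DOT1L and AFF1 the sgNpm1A promoter peaks lay inside the gene, at the starts of shorter annotated transcripts. The highest began 62189 bp into KMT2A, 9125 bp into KMT2B, 48899 bp into DOT1L and 179983 bp into AFF1. Those of KMT2A, KMT2B and DOT1L overlapped a sgNeg peak at the same place, and that of AFF1 did not.

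Among the writers, KMT2A (ENSG00000118058, chr11:118307171-118397547 on GRCh37) had a sgNeg H3K27Ac peak of 3956 bp across its first start, at chr11:118305467-118309422, with a fold of 5.97 (percentile 99.1, rank 2792 by fold and 5924 by width). Its highest sgNpm1A promoter peak was 337 bp wide with a fold of 3.11 (percentile 70.0, rank 94984), beside 2.78 for the sgNeg peak at the same internal start. The internal peak was thus low in both libraries and the peak at the first start was listed in sgNeg alone. KMT2B (ENSG00000272333, chr19:36208875-36229781) had a sgNeg peak of 4294 bp across its first start with a fold of 6.49 (percentile 99.4, rank 1876). The highest sgNpm1A promoter peak of KMT2B was 1193 bp wide with a fold of 3.79 (percentile 96.3, rank 11688). It spanned the internal starts at 36218057 and 36218999. The highest sgNeg peaks within 1 kb of these reached 2.88 (percentile 63.2) and 3.13 (percentile 82.8). Among the genes without a sgNpm1A H3K27Ac peak at the first start, KMT2B had the highest-ranked peak at an internal start. Away from annotated starts, MLLT10 and AFF1 also had high-ranked sgNpm1A peaks inside the gene. That of MLLT10 was 1203 bp wide with a fold of 3.71 (percentile 95.4), and that of AFF1 637 bp with 3.66 (percentile 94.7). With 22 annotated starts in 20.9 kb, the body of KMT2B lies almost wholly within 1 kb of a start, and none of its peaks was classed as intronic.

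The adaptors had no sgNpm1A peak within 1 kb of a start. With 2 kb on either side MEN1 had one, at percentile 37.9. MEN1 (ENSG00000133895, chr11:64570982-64578766), which encodes menin, had a sgNeg H3K27Ac peak of 1543 bp with a fold of 3.38 (percentile 91.1, rank 29117). It spanned 12 of its 13 annotated starts and began 23 bp downstream of the first. The widest peak of the MEN1 locus, 6437 bp in sgNeg with a fold of 3.30, lay at its 3′ end and reached a start of the neighbouring MAP4K2. The widest sgNpm1A peak overlapped that domain and measured 1605 bp. PSIP1 (ENSG00000164985, chr9:15464064-15510993), whose product LEDGF binds nucleosomes and the menin-MLL1 pair, had a sgNeg peak of 1145 bp with a fold of 6.07 (percentile 99.2, rank 2586). PSIP1 had the fewest H3K27Ac peaks of the 10 loci, with 3 in sgNeg and 2 in sgNpm1A, of which 1 in each list was intronic. In both adaptor genes the promoter peak was thus listed in sgNeg alone, with folds of 3.38 and 6.07.

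DOT1L (ENSG00000104885, chr19:2163932-2232577) had the highest promoter peak of the 10 genes: in sgNeg it was 2638 bp wide at chr19:2163463-2166100, with a fold of 8.86 and rank 311 of the list (percentile 99.9). That peak also lay within 1 kb of an annotated start of the neighbouring AP3D1. The highest sgNpm1A promoter peak of DOT1L, at an internal start, was 978 bp wide with a fold of 3.05 (percentile 63.7). The first start itself had no sgNpm1A peak within 1 kb, and the nearest one downstream began 2.845 kb into the gene with a fold of 2.71. The DOT1L locus also had the densest H3K27Ac of the 10, with 43 peaks over 52.3% of its length in sgNeg and 34 over 31.2% in sgNpm1A. MLLT10 (ENSG00000078403, chr10:21813575-22032559), which encodes the DOT1L cofactor AF10, had a sgNeg peak of 1946 bp with a fold of 4.58 downstream of its first start. A higher one, of 2705 bp with a fold of 6.21 (percentile 99.3, rank 2319), lay at a cluster of starts from 8703 bp on. Neither had a sgNpm1A peak within 1 kb of its starts.

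The YEATS readers stood apart from each other. MLLT1 (ENSG00000130382, chr19:6210392-6279986) had the widest H3K27Ac peak of the 10 loci, a sgNeg domain of 10183 bp from its first start into the gene at chr19:6269859-6280041, with a fold of 3.97 (percentile 96.2) and rank 775 by width. In sgNpm1A a peak of 521 bp with a fold of 2.80 (percentile 29.3) lay at that start, and 3 more of 495 to 536 bp lay along the domain. The highest sgNpm1A promoter peak of MLLT1 was 481 bp wide with a fold of 3.80 (percentile 96.4). It began 998 bp downstream of a start 63007 bp into the gene, and so counted by the edge of the 1 kb window. The change of MLLT1 was 0.207 percentile points with any start, -38.6 with 500 bp on either side and -66.9 with the first start alone. MLLT3 (ENSG00000171843, chr9:20341667-20622498) had the lowest promoter peak in sgNeg, 525 bp wide with a fold of 2.57 and a q-value of 0.0626 (percentile 14.1, rank 281508), and none in sgNpm1A. The H3K27Ac peak of MLLT3 lay near the calling limit of a list whose lowest fold was 2.54.

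Of the scaffolds, AFF1 (ENSG00000172493, chr4:87856154-88062191) had 2 promoter peaks in sgNeg. The one across its first start was 4485 bp wide with a fold of 4.70, and the other, at a start 71751 bp into the gene, was 2757 bp wide with a fold of 5.00 (percentile 98.3). In sgNpm1A a peak of 174 bp with a fold of 2.71 (percentile 14.0) was the only promoter peak, at a start where sgNeg had none. AFF4 (ENSG00000072364, chr5:132211087-132299326) had a sgNeg peak of 1724 bp across its first start with a fold of 5.22 (percentile 98.5, rank 4916) and none in sgNpm1A. Both scaffold genes thus lacked a sgNpm1A peak at the first start.

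Intronic H3K27Ac peaks numbered 91 in sgNeg and 69 in sgNpm1A over the 10 loci, with median widths of 234 and 357 bp and median folds of 2.72 and 2.91. In sgNpm1A 53.6% of them overlapped a sgNeg peak, beside 51.4% of the whole list, and in sgNeg 35.2% overlapped a sgNpm1A peak, beside 50.7%. The highest intronic peak of sgNeg was in AFF1, 5810 bp wide with a fold of 5.12 at chr4:87879530-87885339, 23.376 kb into the gene, and had no sgNpm1A counterpart. A second AFF1 domain, of 7768 bp with a fold of 4.42 at chr4:87891377-87899144, touched an exon and was overlapped by a sgNpm1A peak of 1428 bp with a fold of 3.12. AFF1 had 27 intronic peaks in sgNeg and 13 in sgNpm1A.

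The highest sgNpm1A H3K27Ac peak of the 10 loci was an intronic peak of MLLT1 at chr19:6238954-6240269, 1316 bp wide with a fold of 4.60 (percentile 99.3). It overlapped a sgNeg intronic peak of 1171 bp with a fold of 4.23 (percentile 96.9). It was also the 1 sgNpm1A peak of these loci, of 159, at a q-value under 1e-05, where sgNeg had 17 of 228. In the whole lists, 2879 of 317059 sgNpm1A peaks and 9422 of 327715 sgNeg peaks were under that limit. The intronic peak of MLLT1 therefore had a fold at least as high in sgNpm1A as in sgNeg, while the domain at the first start faced sgNpm1A peaks of at most 536 bp. In MLLT3, 13 intronic peaks in sgNeg stood beside 19 in sgNpm1A, and the highest of the latter was 925 bp wide with a fold of 3.44 (percentile 89.5), 108.787 kb into the gene. A sgNeg peak of 216 bp with a fold of 3.18 lay within it.

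**Figure D2:**
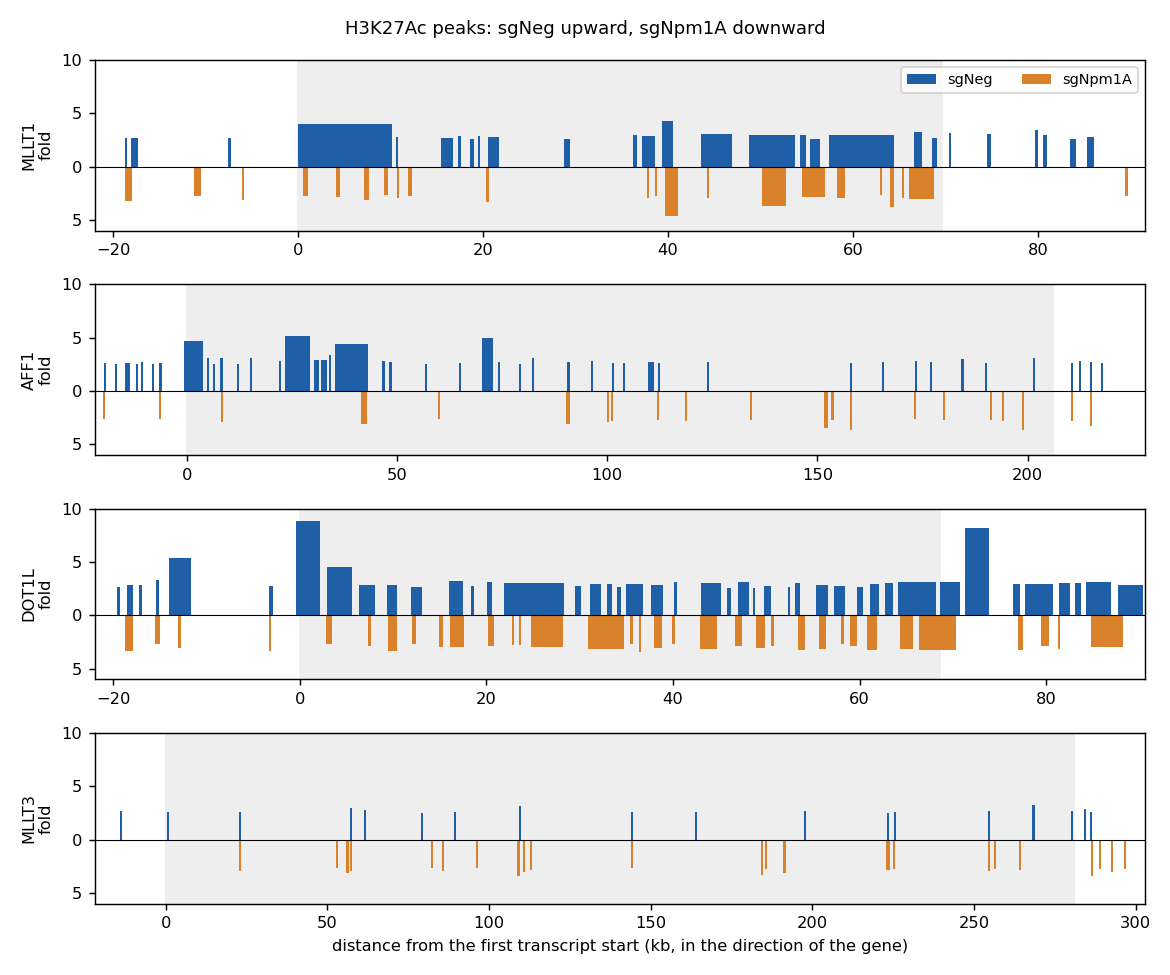
H3K27Ac peaks of the MLLT1, AFF1, DOT1L and MLLT3 loci by distance from the first start (kb), with bar height for fold enrichment, sgNeg upward and sgNpm1A downward; the gray band is the gene body, and very narrow peaks are drawn at a fixed minimum width. The MLLT1 and AFF1 domains of sgNeg (10183 and 7768 bp) face narrower sgNpm1A peaks of up to 536 and 1428 bp, the AFF1 domain of 5810 bp faces none, the intronic MLLT1 peak is present in both, and MLLT3 has low peaks in both.

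The share of a locus under H3K27Ac peaks was lower in sgNpm1A than in sgNeg for 9 of the 10 genes, beside 67.1% of all loci with a sgNeg peak. It was 9.08% in sgNeg and 5.76% in sgNpm1A for KMT2A, 46.2% and 24.2% for KMT2B, 37.2% and 21.1% for MEN1, and 1.61% and 0.941% for PSIP1. For MLLT10 it was 5.68% and 2.06%, for MLLT1 36.0% and 14.9%, for AFF1 15.0% and 3.22%, and for AFF4 4.11% and 2.33%. AFF1 had the lowest ratio of the 10, at 0.215, and 89.4% of all loci had a higher one. MLLT3 was the exception, as it had 1.19% in sgNeg but 2.57% in sgNpm1A. Its ratio of 2.16 was exceeded by 8.80% of all loci. The number of its peaks was 18 and 23. Over the 10 loci together the covered length in sgNpm1A was 0.499 of that in sgNeg and the number of peaks 0.697 (159 of 228), beside 0.742 and 0.882 over the loci of all genes. Of the 228 sgNeg peaks 43.4% overlapped a sgNpm1A peak, beside 50.7% of the whole list.

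**Figure D3:**
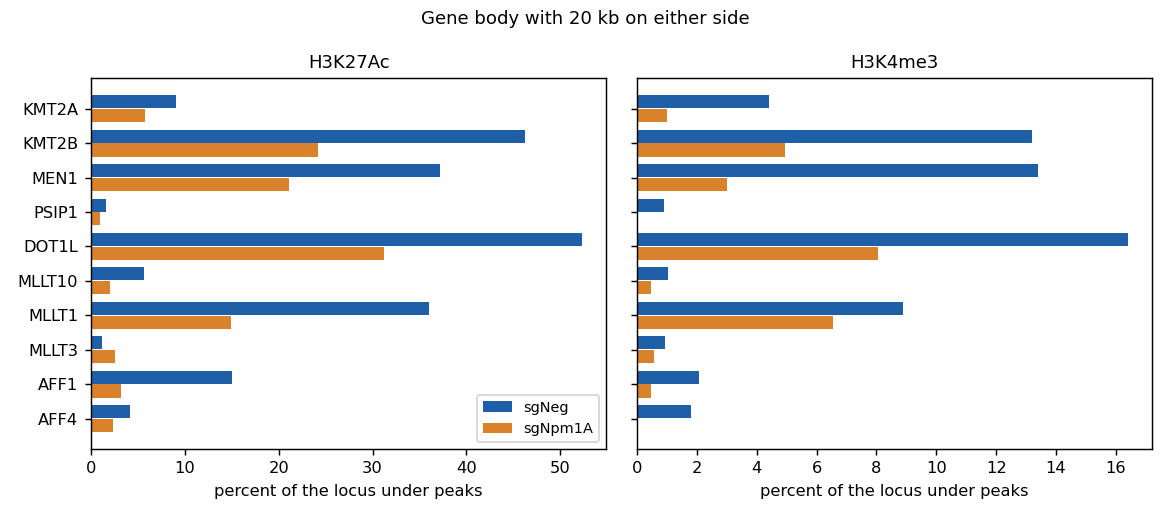
Percent of each locus (gene body with 20 kb on either side) covered by peaks of sgNeg (blue) and sgNpm1A (orange), for H3K27Ac on GRCh37 (left) and H3K4me3 on GRCh38 (right). MLLT3 is the 1 locus with more H3K27Ac in sgNpm1A (2.57% beside 1.19%), and PSIP1 and AFF4 have no sgNpm1A H3K4me3 peak.

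H3K4me3 gave a uniform picture in sgNeg. The 10 genes each had a promoter peak (72.2 to 100%), beside 68.3% of all genes, and the highest had folds of 6.24 in MLLT3 to 13.1 in KMT2B and percentiles of 97.4 to 99.9. In sgNpm1A 0 of 10 genes had one, which allows a share of up to 27.8% (Wilson), beside 9.49% of all genes. The percentile was lower for 10 of 10 genes and for 96.2% of all genes with a sgNeg peak, so that the direction was that of most genes. With no sgNpm1A peak the change is the sgNeg percentile with its sign turned, and its median was -99.4, beside -97.2 over all genes with a sgNeg peak.

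For the writers, the sgNeg H3K4me3 peak of KMT2A was 1864 bp wide with a fold of 10.4 (rank 1469, percentile 99.6) and that of KMT2B 1731 bp with a fold of 13.1 (rank 370). For the adaptors, MEN1 had 897 bp and 6.45 (rank 7913) and PSIP1 786 bp and 7.49 (rank 5276). DOT1L had 1657 bp and 11.0 (rank 1072) and its cofactor MLLT10 1269 bp and 11.4 (rank 871). The writers, DOT1L and MLLT10 thus had higher folds than the adaptors. Of these pairs, only KMT2B and MEN1 had counting intervals, given below, that did not overlap. MLLT1 had 1459 bp with a fold of 11.4, and MLLT3 1019 bp with 6.24 (rank 8632). AFF1 had the widest, of 2586 bp with a fold of 9.15 and rank 244 by width, and AFF4 the narrowest, of 606 bp with a fold of 6.45. MLLT3, whose H3K27Ac promoter peak was at percentile 14.1, thus had a H3K4me3 peak at percentile 97.4. With 500 bp on either side of a start the H3K4me3 percentile of MLLT3 was 85.2 and that of H3K27Ac remained 14.1.

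The H3K4me3 fold values resolved into whole fragments over the summit base, with a constant background of 3.81 fragments in sgNeg and 2.93 in sgNpm1A. The summit held 49 fragments in KMT2A (95% Poisson interval 36.3 to 64.8), 62 in KMT2B (47.5 to 79.5), 52 in DOT1L (38.8 to 68.2) and 54 in MLLT10 and MLLT1 (40.6 to 70.5). It held 43 in AFF1 (31.1 to 57.9), 35 in PSIP1 (24.4 to 48.7), 30 in MEN1 and AFF4 (20.2 to 42.8) and 29 in MLLT3 (19.4 to 41.6). The interval of KMT2B did not overlap those of MEN1, AFF4 and MLLT3, while neighbours in this order overlapped. At the fold of sgNeg and the background of sgNpm1A, the same peaks would have held 24 to 51 fragments in sgNpm1A. The lowest peak of that list held 10. This reckoning takes the enrichment of both libraries as equal, which was not tested. Over all genes, 68.3% had a H3K4me3 promoter peak in sgNeg and 9.49% in sgNpm1A.

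**Figure D4:**
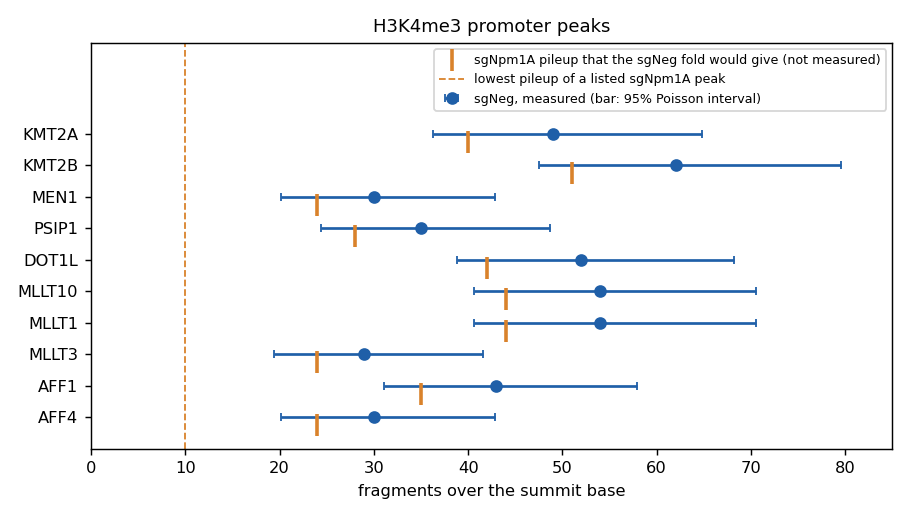
Fragments over the summit of the highest sgNeg H3K4me3 promoter peak of each gene (points, with 95% Poisson intervals of counting error). Orange ticks, at 24 to 51 fragments, are what the same fold would give in sgNpm1A if both libraries were equally enriched, and are not measured values. The dashed line is the lowest summit listed in sgNpm1A, 10 fragments.

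Each of the 10 sgNeg H3K4me3 peaks began downstream of the first start and extended into the gene. The distance from the first start to the near edge was 25 bp in AFF1, 45 in KMT2B, 48 in MLLT1, 56 in KMT2A, 73 in DOT1L, 97 in PSIP1 and 157 in AFF4. It was 605 bp in MLLT10, 646 in MLLT3 and 702 in MEN1, and MLLT10 and MEN1 have further RefSeq starts in between. The far edge was 762 bp (AFF4) to 2610 bp (AFF1) from the first start. In KMT2A, KMT2B, MLLT3 and AFF1 a separate peak lay before the start, with folds of 4.78, 6.24, 4.16 and 3.33, and left the start itself uncovered. By contrast, 7 of the 10 H3K27Ac peaks at the first start spanned it, with those of MEN1, MLLT10 and MLLT3 downstream of it. H3K27Ac peaks were called as broad regions and H3K4me3 peaks as narrow ones, and the builds differ, so that the edges of the marks were not compared further.

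**Figure D5:**
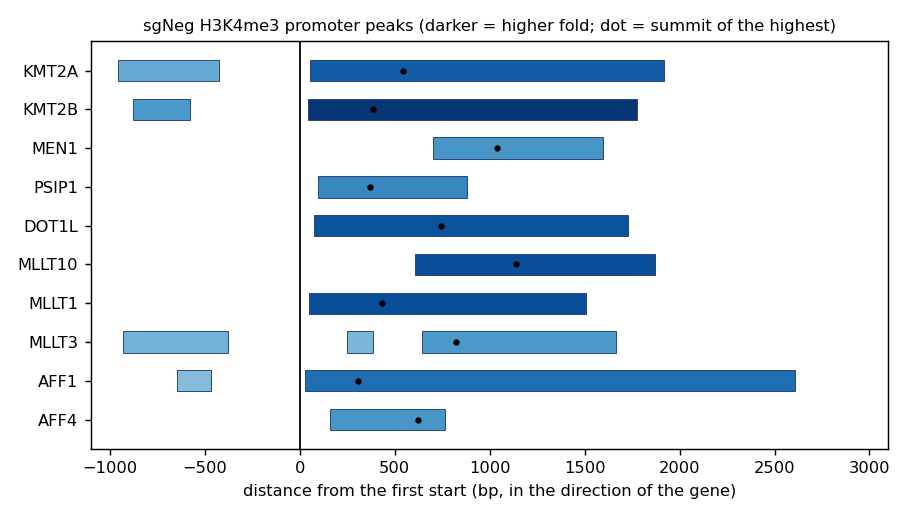
Position of the sgNeg H3K4me3 promoter peaks of each gene relative to the first start (bp, in the direction of the gene); a darker bar has a higher fold, the dot is the summit of the highest peak, and the peak of AFF1 at its internal start lies outside the plot. Near edges are 25 to 702 bp downstream of the start, and KMT2A, KMT2B, MLLT3 and AFF1 have a separate peak before it.

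Most H3K4me3 peaks away from the starts of the 10 genes were lower and narrower than their promoter peaks. The bodies of the 10 genes held 92 in sgNeg, with a median width of 184 bp and a median fold of 3.33, and 39 in sgNpm1A, with 394 bp and 3.56. They could not be divided into exonic and intronic, since no exon annotation of GRCh38 was used here. Exceptions in sgNeg included peaks beyond the 3′ ends of MEN1 (1051 bp, fold 7.49) and AFF4 (927 bp, fold 8.32). Both were above the fold of 6.45 of the gene's own promoter peak. The 10 sgNeg peaks at starts of other genes had a median fold of 6.24 and a highest of 10.6. Further exceptions were a pair of peaks in the body of MLLT1 with a fold of 6.66, and a peak before DOT1L. The latter, at chr19:2150125-2151565, was 1441 bp wide with a fold of 12.9 (that of the DOT1L promoter was 11.0). It was classed as flank by the RefSeq starts used for H3K4me3. By the GENCODE starts used for H3K27Ac, a start of AP3D1 lies in that region, so it may be a promoter peak of AP3D1. In sgNpm1A the widest was a MLLT1 flank peak of 1493 bp with a fold of 3.56. The highest was a MEN1 flank peak of 828 bp with a fold of 5.60 (percentile 97.9). DOT1L had the most gene body peaks in both lists, with 33 and 13, followed by MLLT1 with 23 and 13. The highest sgNpm1A peak in a gene body was in DOT1L at chr19:2200106-2200530, 425 bp wide with a fold of 4.58 (percentile 88.6), and it overlapped a sgNeg peak. Of the 92 sgNeg gene body peaks 29.3% overlapped a sgNpm1A peak, beside 22.6% of the whole list.

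The share of the locus under H3K4me3 peaks was lower in sgNpm1A for 10 of 10 genes, beside 94.0% of all loci with a sgNeg peak. The ratio of sgNpm1A to sgNeg was 0 in PSIP1 and AFF4, which had no sgNpm1A peak, 0.221 in AFF1, 0.225 in KMT2A and MEN1, 0.373 in KMT2B, 0.437 in MLLT10 and 0.492 in DOT1L. MLLT3 with 0.627 and MLLT1 with 0.735 had the highest ratios. Over the 10 loci the covered length was 0.419 and the number of peaks 0.311 of that in sgNeg (56 of 180), beside 0.513 and 0.284 over all genes. The 56 sgNpm1A peaks lay in gene bodies and flanks, apart from 2 at starts of AMH, a gene next to DOT1L. Of the 56, 35 (62.5%) overlapped a sgNeg peak, beside 61.2% of the whole list.

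A list of 33 further genes of the same machinery held the other MLL and COMPASS subunits, super elongation complex members, the PAF1 complex, DOT1L partners, the LEDGF relative HDGFL2 and the menin partner JUND. H3K27Ac promoter peaks were listed for 32 of 33 in sgNeg (84.7 to 99.5%) and 21 of 33 in sgNpm1A (46.6 to 77.8%), and at the first start for 32 and 6. H3K4me3 promoter peaks were listed for 30 and 0. Beside these stand 79.2% and 57.1% of all genes for any start, 69.9% and 32.4% for the first start, and 68.3% and 9.49% for H3K4me3, so that the difference between the guides was in the direction found over all genes. The median H3K27Ac percentile was 98.8 in sgNeg and 34.6 in sgNpm1A.

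The highest sgNeg H3K27Ac promoter peaks of that list were those of PAXIP1 (PTIP, a subunit of the KMT2C and KMT2D complexes) with a fold of 9.25, SETD1B (a COMPASS methyltransferase) with 8.89 and KMT2C with 8.55. In sgNpm1A PAXIP1 had a fold of 3.08, KMT2C had 3.23 and SETD1B had no peak. PAF1, a subunit of the elongation-linked complex of that name, had 4.47 in sgNeg and 4.79 in sgNpm1A (percentiles 97.4 and 99.4), KMT2D 7.25 and 3.71 (99.7 and 95.3) and HDGFL2 4.66 and 3.56 (97.7 and 92.6). None of PAF1, KMT2D and HDGFL2 had a sgNpm1A peak at the first start, so that their high percentiles came from internal starts, as in KMT2B. AFF2 had no H3K27Ac promoter peak in either list. For H3K4me3 the highest folds in sgNeg were 15.0 in KMT2D and 13.7 in ELL and HDGFL2, and AFF2, SETD1B and ELL3 had no peak within 1 kb of the starts used.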

How the data were processed

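ChIPmentation peak lists of 4 libraries (OCI-AML3, 2 guides by 2 marks) were analysed, grouped by sample title. The authors called peaks for each library on its own. The submitters' processing notes name bcl2fastq 2.17, Trimmomatic 0.33, Bowtie 1.1.2, MACS2 2.1.0 and deepTools, without their order or settings. The calling limit, the use of the inputs and any shift for Tn5 were not given in the sources used here. The authors' fold enrichment sets the pileup against the expected one, at the summit of narrow peaks (H3K4me3) or as a regional mean of broad peaks (H3K27Ac). For H3K4me3 the values resolved as the pileup divided by the background after a fragment was added to each. Each deposited row also gives p- and q-values as −log10, and a score that was not used here.

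Builds were settled from chromosome ends: chromosome 1 peaks reached 249218478 in the H3K27Ac lists (GRCh37) and chromosome 17 peaks 83201880 in the H3K4me3 lists (GRCh38), although the notes name hg38 alone. No coordinates were converted. A promoter was 1 kb on either side of a start, with an overlap of at least 1 bp. Starts came from GENCODE 44 mapped to GRCh37 for H3K27Ac. For H3K4me3 they came from the RefSeq promoter table and the ends of RefSeq gene records (GRCh38.p14), although any annotated transcript start was planned, so that fewer starts were used there. DOT1L had no entry in the promoter table. Where a peak in a gene touched no promoter, it was exonic if it touched any exon and otherwise intronic. H3K4me3 pileups solved from fold and background were whole in 100% of peaks of both lists (within 0.01 fragments, for folds of 10 or less), and 100% of p-values matched within 0.02 of their value.

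No test was run, with 1 library per group. Python 3.11.15, pandas 2.3.3, numpy 2.4.6 and scipy 1.17.1 were used, and the counting code was checked on simulated peaks. The 10 genes were all described. From the list of 33, the 3 highest in sgNeg for each mark, those without a sgNeg peak and those at a sgNpm1A percentile of 90 or more were named. The genes and lists were chosen with earlier results of these data known. Alternatives were limits on q-value and fold, equal list lengths, other promoter and locus widths, the first start alone and a stricter overlap.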

Additional observations from a re-analysis of the deposited data

How the results depend on the processing

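For H3K27Ac, the members with a promoter peak in sgNpm1A fell from 5 to 3 at a q-value under 0.01, to 0 at a q-value under 1e-05 or a fold of at least 4, to 2 with each list limited to its 20000 most significant peaks, and to 1 with the first start alone. With 2 kb on either side of a start they rose to 6. In sgNeg the members with one were 9 at a q-value under 0.01 and 8 with 20000 peaks. They were 7 at a q-value under 1e-05 or a fold of at least 4, and 10 with the first start or 2 kb. Of all peaks, 2879 of 317059 in sgNpm1A and 9422 of 327715 in sgNeg had a q-value under 1e-05. At a q-value under 0.01 the order was the reverse, with 106814 in sgNpm1A and 71621 in sgNeg. At the first start 32.4% of all genes had a sgNpm1A peak, and such shares are not given here for the other alternatives. The genes of the list of 33 with a sgNpm1A promoter peak fell from 21 to 1 at a q-value under 1e-05 or a fold of at least 4. They fell to 2 with 20000 peaks and to 6 with the first start, and rose to 24 with 2 kb. Those with a sgNeg one were 27 at a q-value under 1e-05 and 29 at a fold of at least 4. They were 32 with 20000 peaks, the first start or 2 kb. The median change of the percentile over the members, -60.2, was -94.7 at a q-value under 0.01, -98.8 at a q-value under 1e-05 or a fold of at least 4, -98.4 with 20000 peaks, -98.2 with the first start, -61.4 with 500 bp and -41.2 with 2 kb. In the same order of limits (q under 0.01, q under 1e-05, fold of at least 4, 20000 peaks), the covered-length ratio over the member loci was 0.370, 0.0238, 0.0233 and 0.109, the peak-number ratio 0.906, 0.0588, 0.0556 and 0.381, and the share of sgNeg peaks overlapped 20.8%, 0%, 5.56% and 4.76%. The covered-length ratio was 0.510 over the gene bodies alone and 0.516 with 50 kb on either side, and the overlap share was 15.4% when 50% of both peaks had to be shared. For H3K4me3, a q-value under 1e-05 gave a covered-length ratio of 0.0865, a peak-number ratio of 0.102 and an overlap share of 2.04%. A fold of at least 4 gave a covered-length ratio of 0.178 and a share of 2.50%, and 20000 peaks gave 0.153 and 0%. The gene bodies alone gave 0.461, 50 kb on either side 0.455, and the stricter overlap a share of 7.22%. The change of the H3K27Ac promoter percentile of MLLT1 reversed, to -38.6 with 500 bp on either side of a start and to -66.9 with the first start alone. The members with a H3K4me3 promoter peak in sgNpm1A were 0 under each alternative. Stricter limits keep fewer peaks by construction; the cause of the other shifts was not tested. No paired analysis was possible because there was 1 library per group and the labels carry no replicate numbers. Without replicates, the spread between libraries of 1 guide is unknown.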

Other observations

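Starts of other genes within the member loci showed the marks as follows. Peaks also within 1 kb of a start of the member itself were not counted. H3K27Ac peaks at the starts of other genes numbered 23 in sgNeg and 13 in sgNpm1A, with median folds of 3.16 and 3.03 and median widths of 1503 and 614 bp. The highest was at the shared promoter region of PLEKHJ1 and the splicing factor gene SF3A2, beyond the 3′ end of DOT1L, with a fold of 8.14 over 2534 bp in sgNeg and no overlapping sgNpm1A peak. AP3D1, before DOT1L, had a fold of 5.36 over 2337 bp in sgNeg and 3.04 over 308 bp in sgNpm1A. The sgNeg promoter peak of DOT1L, with a fold of 8.86, was also near a start of AP3D1 and is not in this count. The region of UQCRQ, a respiratory complex subunit gene, and GDF9 in the AFF4 locus had 5.17 in sgNeg and none in sgNpm1A. By the fewer RefSeq starts used, H3K4me3 peaks at such starts numbered 10 and 2, and both of the latter were at AMH, with folds of 5.09 and 4.58. The sgNeg peak in the AP3D1 region before DOT1L, with a fold of 12.9, was not among them.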
